A study of Mus musculus with 10 samples.

Results

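The enzymes that write and remove DNA methylation, and the metabolic enzymes that feed the removal step, were followed through mouse bone marrow RNA-seq. The members are 9 genes chosen by symbol and not by any measured value: Dnmt1, Uhrf1, Dnmt3a, Dnmt3b, Tet1, Tet2, Tet3, Idh1 and Idh2, of the 16771 genes listed for each library. There were 10 libraries in 5 groups of 2, which the submitters call biological replicates. All mice were C57BL/6. The Npm1c group carried 1 floxed Npm1-cA allele (Npm1flox-cA/+) with Mx1-Cre, whose promoter is induced by interferon. The Flt3-ITD group carried 1 internal tandem duplication allele (Flt3ITD/+) with no Cre in its label, and the DM group carried both mutant alleles and Mx1-Cre. The wild-type (WT) group carried none of these alleles. The Npm1c, Flt3-ITD, DM and WT HSPC (hematopoietic stem and progenitor cells) were bone marrow cells left after magnetic lineage depletion, a mixed population, and the last group held WT neutrophils from a magnetic isolation kit. Ages, sexes and the number of mice per library are not given in the labels. With 2 libraries per group, p-values set a difference against 1 spread between replicate libraries for each gene, shared by all groups fitted. They do not reflect a group's own spread, and the Flt3-ITD pair, which differed most, was held to the same one.

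DNA methyltransferases place a methyl group on cytosine, mostly where cytosine precedes guanine. DNMT1, guided by UHRF1 to newly replicated DNA, copies the existing pattern to the daughter strand, while DNMT3A and DNMT3B can methylate new sites. TET1, TET2 and TET3 oxidise methylcytosine in a reaction that needs 2-oxoglutarate, which IDH1 makes in the cytosol and IDH2 in mitochondria. DNMT3A, TET2, IDH1 and IDH2 are recurrently mutated in human acute myeloid leukaemia, where NPM1 and FLT3 mutations also occur.

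In DM HSPC, 5 of the 7 members tested fell against WT HSPC, and a pair, Tet2 and Tet3, rose, Tet3 by little. Of the 5, Dnmt3a fell no more than the median of all genes, and the call for Idh1 held in 11 of 19 alternative settings. In Npm1c HSPC all 7 fell, Tet2 and Tet3 among them, though the fall of Tet3 turned with other scalings. Among the 4 HSPC groups, Dnmt1, Uhrf1, Idh2, Dnmt3b and Tet1 were lowest in DM HSPC, and Tet2 and Tet3 were highest there. WT neutrophils combined the lowest levels of Dnmt1, Uhrf1, Dnmt3b and Idh2 of the 5 groups with the highest level of Idh1.

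The promoters printed here are those of Dnmt1 and Uhrf1, which fell in all 3 mutant groups, and of Tet2, which rose in DM HSPC. They are RefSeq windows on GRCm38.p6, 250 bases before to 50 bases after an annotated start, 300 bases long, written 5′ to 3′ on the gene's strand. RefSeq windows matched all 9 members, with 15 starts among them. E2F factors bind promoters of S phase genes, so 4 E2F-type words (TTTGGCGC, TTTCGCGC, TTTCCCGC and TTTGCCGC) were searched on both strands. In the Dnmt1 and Uhrf1 windows, at chr9:20952574-20952873 on the minus strand and chr17:56304063-56304362 on the plus strand, capitals mark these words.
Dnmt1: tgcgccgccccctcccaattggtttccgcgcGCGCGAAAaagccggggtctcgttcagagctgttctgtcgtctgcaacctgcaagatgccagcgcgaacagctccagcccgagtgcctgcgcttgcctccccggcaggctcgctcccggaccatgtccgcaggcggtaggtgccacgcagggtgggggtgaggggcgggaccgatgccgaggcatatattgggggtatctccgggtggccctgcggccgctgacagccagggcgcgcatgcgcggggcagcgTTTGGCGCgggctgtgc
Uhrf1: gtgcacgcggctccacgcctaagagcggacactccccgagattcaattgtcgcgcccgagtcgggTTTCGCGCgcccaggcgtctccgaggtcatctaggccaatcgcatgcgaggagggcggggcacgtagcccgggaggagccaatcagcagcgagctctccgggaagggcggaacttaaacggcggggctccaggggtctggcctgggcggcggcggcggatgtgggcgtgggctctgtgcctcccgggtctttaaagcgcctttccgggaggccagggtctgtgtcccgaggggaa
The Dnmt1 window held TTTCGCGC on its opposite strand beginning 219 bases before the start site, and TTTGGCGC beginning 33 bases after it, while the Uhrf1 window held TTTCGCGC beginning 185 bases before it. These matches did not overlap each other. Of the 15 member windows, 2 held such a word, and 2.27% of all 32851 RefSeq promoter windows of the same length did. The 2 were the Dnmt1 and Uhrf1 windows printed here. The other windows of these genes held none, and the distances apply to the printed starts only. A match is a description of the letters. In the Tet2 window, at chr3:133544341-133544640 on the minus strand, capitals mark CpG, the pair of letters that the enzymes act on.
Tet2: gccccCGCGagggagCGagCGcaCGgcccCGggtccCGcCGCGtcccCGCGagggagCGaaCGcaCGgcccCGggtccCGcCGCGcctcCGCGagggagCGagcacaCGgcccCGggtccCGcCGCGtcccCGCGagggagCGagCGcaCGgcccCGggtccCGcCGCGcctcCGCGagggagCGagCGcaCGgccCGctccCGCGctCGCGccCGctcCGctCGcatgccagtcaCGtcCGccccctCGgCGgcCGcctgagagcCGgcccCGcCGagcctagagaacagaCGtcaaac
The Tet2 window held 57 CpG, at the 99.8 percentile of all promoter windows, whose median was 7. The Dnmt3a windows held 46, 47 and 18, the Dnmt1 windows 33 (printed above), 12 and 2, the Uhrf1 windows 33 (printed above) and 12, Dnmt3b 30, both Idh1 windows 23, Tet3 22, Idh2 20 and Tet1 17. Methylation itself was not measured.

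The library totals behind the deposited RPKM, recovered from their steps, ran from 40783015 to 57824373 reads, and 60.9% to 81.4% of those reads lay on the listed genes. That share was 60.9% and 63.1% in the Npm1c libraries, 69.6% and 63.5% in Flt3-ITD, 67.5% and 67.1% in DM, 81.3% and 81.4% in neutrophils and 74.5% and 74.2% in WT HSPC. The Flt3-ITD libraries differed most from each other, with a chi-square of 32.7 per degree of freedom over genes, against 2.31 to 11.0 in the other groups. Y-linked transcripts were present in Npm1c replicate 2 and Flt3-ITD replicate 1 and not in the other libraries. The 10 markers of HSPC summed to 92.7 to 135 RPKM in the 8 HSPC libraries and to 21.1 and 20.7 RPKM in neutrophils. The 12 neutrophil markers summed to 60.1 to 416 RPKM in HSPC libraries and to about 100000 RPKM in neutrophils. Erythroid markers summed to 710 and 694 RPKM in DM and 643 and 669 in WT HSPC, B cell markers to 8.73 and 13.1 and to 8.40 and 8.86, and T and NK cell markers to 20.2 and 19.8 and to 41.5 and 42.6 in the same 2 groups. Every marker in the lists was above 0 in every library. Flt3 itself stood at 44.2 and 44.3 RPKM in DM libraries, against 5.35 and 5.22 RPKM in WT HSPC, and Npm1 at 146 and 142 RPKM against 289 and 284 RPKM. A gene's level does not tell its mutant allele from its normal one.

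Changes are log2 differences of RPKM + 0.5 from limma fitted to every gene that reached 1 RPKM in 2 or more of the libraries fitted, ± the standard error, with Benjamini-Hochberg adjusted p-values called at 0.05. The median gene was not at 0: its log2 change was -0.26 in Npm1c, -0.14 in Flt3-ITD, -0.34 in DM and -0.70 in neutrophils, each against WT HSPC. A change is therefore also given relative to the median gene where the shift matters. Dnmt3b and Tet1 stayed below the minimum and were not tested in this fit. Dnmt3a reached 1 RPKM in both WT HSPC libraries and in Flt3-ITD replicate 1 alone, so it entered the test through the group where it was highest. This limits what the p-values of Dnmt3a show, and the counts of members called include it.

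In Npm1c HSPC, 7 of the 7 members tested fell against WT HSPC and none rose. Of all 9702 genes tested, 58.1% fell and 2.49% rose, or 20.1% and 18.2% with median-of-ratios size factors, under which 5 members fell and none rose. In Flt3-ITD HSPC, 3 of 7 fell against WT HSPC and none rose, beside 31.3% of all genes that fell and 1.86% that rose (9.65% and 8.24% with median-of-ratios size factors, with 2 members lower). Without Flt3-ITD replicate 1, 7 of 7 were called, and without either WT HSPC library 0 were. In DM HSPC, 2 of 7 rose and 5 fell against WT HSPC, beside 23.9% and 58.9% of all genes (37.3% and 40.3% with those factors, with 2 members higher and 3 lower), and without DM replicate 1, 4 of the 7 were called. Set against Npm1c HSPC, DM HSPC had 2 members higher and 2 lower, beside 34.4% and 43% of all genes. With those factors 3 members were higher and 2 lower, beside 38.7% and 41.8% of all genes. Set against Flt3-ITD HSPC, DM HSPC had 2 higher and 3 lower, beside 28.6% and 48.8% (37.9% and 40.4% with those factors). In neutrophils, 2 of 7 rose and 4 fell against WT HSPC, beside 28.4% and 62.8% of 10174 genes (44.6% and 45.9% with those factors, with 4 members higher and 3 lower). In DM HSPC against WT HSPC these shares lie near the members' own 2 and 5 of 7, so that count says little about the members as a set. The comparisons against WT HSPC share their control libraries.

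**Figure D1:**
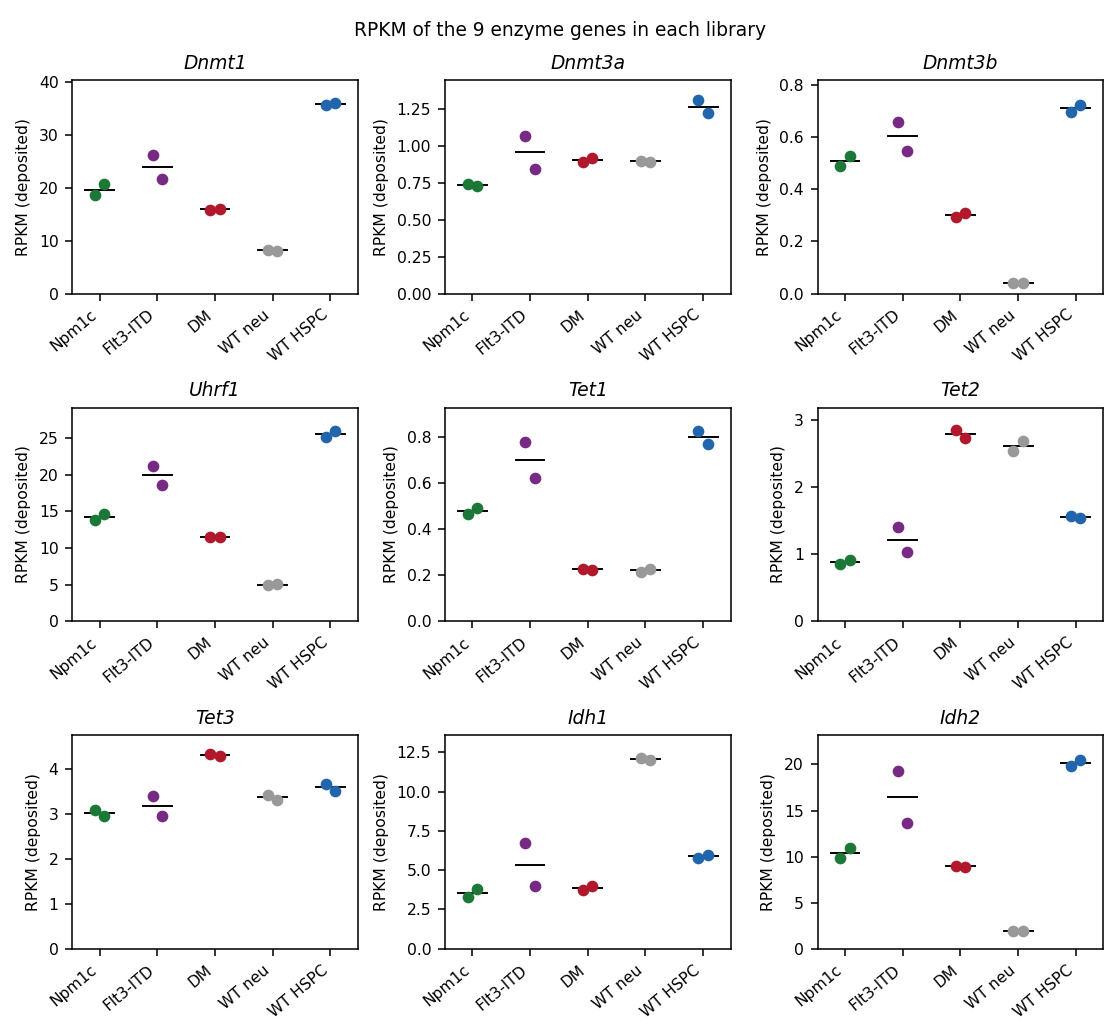
Deposited RPKM (vertical axis, linear from 0) of each of the 9 genes in every library, with points for the 2 libraries of a group and a bar for their mean. WT HSPC are highest for Dnmt1 (35.7 and 35.9 RPKM) and Uhrf1, DM HSPC for Tet2 (2.84 and 2.73 RPKM) and Tet3, and neutrophils for Idh1.

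The maintenance pair fell in all 3 mutant groups and was lowest among them in DM. Dnmt1 (chromosome 9, 20907209 to 20959888, minus strand) had 18.6 and 20.6 RPKM in Npm1c libraries, 26.1 and 21.6 in Flt3-ITD, 15.8 and 16.1 in DM, 8.28 and 8.09 in neutrophils and 35.7 and 35.9 in WT HSPC. No 2 groups overlapped, and the order was WT HSPC, Flt3-ITD, Npm1c, DM and neutrophils from high to low. The log2 change against WT HSPC was -0.85 ± 0.09 in Npm1c (adjusted p = 0.000856), -0.58 ± 0.09 in Flt3-ITD (adjusted p = 0.00646), -1.14 ± 0.09 in DM (adjusted p = 2.09e-05) and -2.06 ± 0.09 in neutrophils (adjusted p = 3.31e-08). Relative to the median gene, Dnmt1 in DM HSPC stood at 0.572 of its WT HSPC level. DM HSPC were also lower than Npm1c HSPC by a log2 change of -0.29 ± 0.09 (adjusted p = 0.0225), a call lost without either DM library or without Npm1c replicate 2 (adjusted p up to 0.13), and lower than Flt3-ITD HSPC by -0.56 ± 0.09 (adjusted p = 0.00101).

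Uhrf1 (chromosome 17, 56303321 to 56323486, plus strand), the gene of the factor that recognises hemimethylated sites and recruits DNMT1, had 13.8 and 14.7 RPKM in Npm1c HSPC, 21.1 and 18.6 in Flt3-ITD HSPC, 11.4 and 11.5 in DM, 4.92 and 5.07 in neutrophils and 25.1 and 25.9 in WT HSPC. Its groups stood in the order of those of Dnmt1, again with no overlap. Against WT HSPC its log2 change was -0.82 ± 0.07 in Npm1c (adjusted p = 0.00055), -0.35 ± 0.07 in Flt3-ITD (adjusted p = 0.0111), -1.12 ± 0.07 in DM (adjusted p = 5.95e-06) and -2.24 ± 0.06 in neutrophils (adjusted p = 3.78e-09). DM HSPC were lower than Npm1c HSPC by -0.30 ± 0.07 (adjusted p = 0.00544) and lower than Flt3-ITD HSPC by -0.76 ± 0.07 (adjusted p = 4.7e-05). Without either WT HSPC library, neither Dnmt1 nor Uhrf1 was called in Flt3-ITD HSPC (adjusted p of 0.0534 to 0.0817). The interaction of the alleles, DM minus Npm1c minus Flt3-ITD plus WT HSPC, was 0.29 ± 0.13 for Dnmt1 (adjusted p = 0.0848) and 0.06 ± 0.10 for Uhrf1 (adjusted p = 0.632), and the second changed sign under 3 other scalings.

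Genes of DNA replication fell in DM HSPC and neutrophils, as did the maintenance pair. The 21 S phase genes listed, which include replication licensing and nucleotide synthesis enzymes, summed to 629 and 667 RPKM in Npm1c HSPC, 789 and 752 in Flt3-ITD HSPC, 418 and 417 in DM, 172 and 174 in neutrophils and 898 and 901 in WT HSPC. The groups of this sum stood in the same order as those of Dnmt1 and Uhrf1. Against WT HSPC, 18 of the 21 fell in Npm1c (median log2 change -0.45), 12 in Flt3-ITD (-0.23), 20 in DM (-0.996) and 21 in neutrophils (-2.32), and none rose. The share of all genes that fell was 58.1%, 31.3%, 58.9% and 62.8% in these comparisons. With median-of-ratios size factors the S phase counts were 10, 2, 20 and 21, beside 20.1%, 9.65%, 40.3% and 45.9% of all genes. Mki67, a proliferation marker outside this list, stood in another order, at 33.4 and 36.8 RPKM in Npm1c HSPC, 42.0 and 31.6 in Flt3-ITD HSPC, 72.1 and 69.7 in DM, 41.5 and 43.7 in neutrophils and 128 and 116 in WT HSPC. In DM HSPC, Pole, the catalytic subunit of DNA polymerase epsilon, changed by -1.25 ± 0.05 (adjusted p = 6.49e-07), Rrm1 of ribonucleotide reductase by -1.38 ± 0.05 (adjusted p = 7.22e-07) and Cdc6, a licensing factor, by -1.44 ± 0.05 (adjusted p = 7.58e-07). The HSPC markers summed to 93.9 and 94.9 RPKM in DM and 122 and 120.1 RPKM in WT HSPC. The part of cell cycling or of cell type in the fall of Dnmt1 and Uhrf1 was not tested. In a bulk library, fewer cells of a type and less RNA per cell cannot be told apart.

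**Figure D2:**
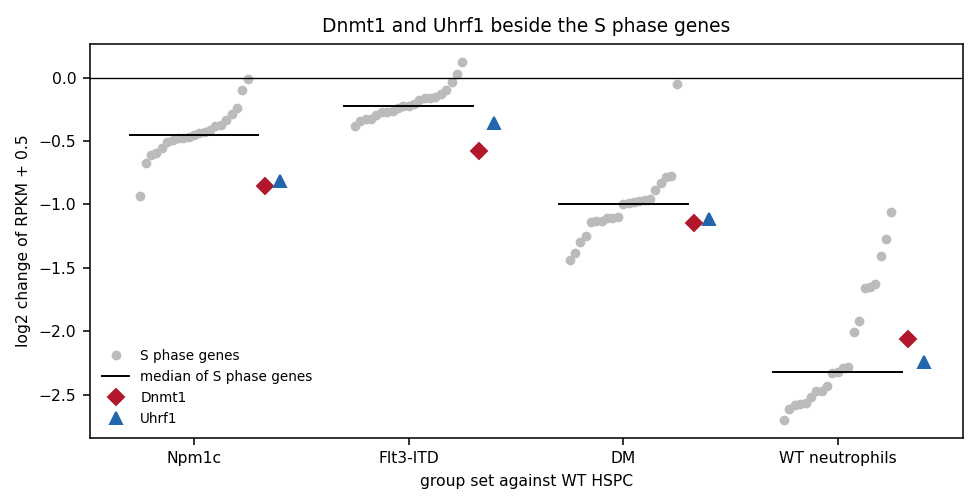
Log2 change of RPKM + 0.5 against WT HSPC (vertical axis) of the 21 S phase genes (grey points, each ranked within its group), their median (line), Dnmt1 (diamond) and Uhrf1 (triangle), for the Npm1c, Flt3-ITD, DM and neutrophil groups. Dnmt1 and Uhrf1 lie below the S phase median in Npm1c, Flt3-ITD and DM (-1.14 and -1.12 against -0.996 in DM) and above it in neutrophils.

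Partners of the methyltransferases fell in DM HSPC and neutrophils. Of 8 DNMT partners tested, 7 fell in Npm1c, 6 in Flt3-ITD, 8 in DM and 8 in neutrophils against WT HSPC, with none higher, and their median log2 change in DM was -0.71 beside -0.34 over all genes. All-gene shares lower were 58.1%, 31.3%, 58.9% and 62.8%. With median-of-ratios size factors 3 partners fell and 1 rose in Npm1c, none fell and 1 rose in Flt3-ITD, 6 fell in DM and 8 in neutrophils. Under those factors 20.1%, 9.65%, 40.3% and 45.9% of all genes fell, and 18.2%, 8.24%, 37.3% and 44.6% rose. Cdca7, which activates the HELLS chromatin remodeller, changed in DM by -1.28 ± 0.09 (adjusted p = 1.04e-05). Trim28, a corepressor that recruits silencing complexes, changed by -1.02 ± 0.07 (adjusted p = 1.38e-05), and Uhrf2, a relative of Uhrf1, by -0.65 ± 0.05 (adjusted p = 1.56e-05). Cdca7 also had a negative interaction of the 2 alleles, -0.68 ± 0.13 (adjusted p = 0.00255).

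The de novo enzymes did not move alike. Dnmt3a (chromosome 12, 3806007 to 3914443, plus strand) had 0.743 and 0.730 RPKM in Npm1c HSPC, 1.07 and 0.844 in Flt3-ITD HSPC, 0.888 and 0.917 in DM, 0.897 and 0.890 in neutrophils and 1.31 and 1.22 in WT HSPC. WT HSPC were above every other group, Npm1c below every other, and the DM libraries lay inside the range of the Flt3-ITD pair. Its log2 change against WT HSPC was -0.51 ± 0.08 in Npm1c (adjusted p = 0.00257), -0.28 ± 0.08 in Flt3-ITD (adjusted p = 0.0371) and -0.33 ± 0.08 in DM (adjusted p = 0.0067). The Flt3-ITD call was kept in 8 of 19 alternatives, and was lost with no filter, with 3 other scalings (-0.16, adjusted p = 0.116, with median-of-ratios) and when any HSPC library other than Flt3-ITD replicate 1 was left out. The DM change equalled that of the median gene, with a difference of 0.01 on the log2 scale, and with median-of-ratios size factors it was not called (-0.09, adjusted p = 0.203). In neutrophils the log2 change was -0.34 ± 0.07 (adjusted p = 0.00191), which turned to 0.25 with median-of-ratios size factors (adjusted p = 0.00147) and to 0.19 under quantile normalization (adjusted p = 0.00432). Dnmt3aos lies on the opposite strand and shares 133 exon bases with Dnmt3a. Whether counting used the strand is not given in the sources used here.

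Dnmt3b (chromosome 2, 153649450 to 153687730, plus strand) had 0.488 and 0.528 RPKM in Npm1c HSPC, 0.658 and 0.545 in Flt3-ITD HSPC, 0.295 and 0.308 in DM, 0.0419 and 0.0403 in neutrophils and 0.695 and 0.722 in WT HSPC. No groups overlapped. The neutrophil values rested on 72 and 73 reads and the DM values on 553 and 629, against 1623 and 1761 reads in WT HSPC.

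The low level of Dnmt3b came with the gene length used for it. Reads and lengths could be recovered from the deposited values. For 10232 of the 16047 genes matched to GENCODE M21, the length equalled the exons of all annotated transcripts added together. Each exon was taken as its end minus its start position, a base short of its full length. Shared exons were counted once for each transcript. The match held for 5 of the 9 members. Dnmt3b, with 12 annotated transcripts, was divided by 42184 bases, against 5106 bases when overlapping exons are merged, a factor of 8.26. The factor was 1.19 for Tet3, 2.09 for Tet1 and 2.09 for Tet2, 2.22 for Dnmt1, 2.50 for Dnmt3a, 2.59 for Idh2, 2.74 for Idh1 and 3.69 for Uhrf1, with a median of 1.54 over matched genes. The factor is the same in every library, so it leaves ratios of RPKM between libraries as they are. It changes the order between genes and which genes pass the minimum of 1 RPKM. It also moves the log2 changes of RPKM + 0.5, because the added 0.5 shrinks those of low genes. For Dnmt3b in DM against WT HSPC the change was -0.59 as deposited, -1.09 by merged length and -1.23 with voom on recovered reads. In neutrophils these values were -1.16, -2.92 and -4.10. For Tet1 in DM they were -0.84, -1.16 and -1.82.

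**Figure D3:**
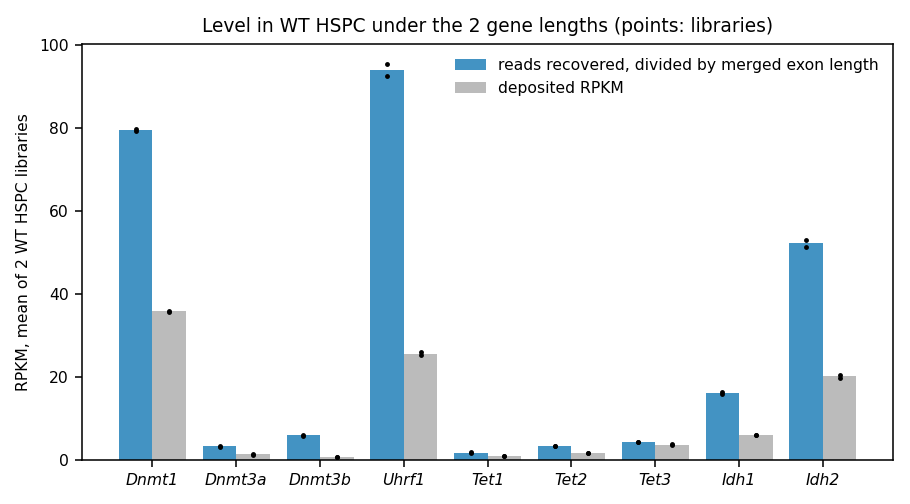
RPKM in WT HSPC (mean of 2 libraries as bars from 0, libraries as points) of the 9 genes, from reads divided by merged exon length (blue) and as deposited (grey). Dnmt3b stands at 5.85 RPKM by merged length and 0.709 as deposited, and Uhrf1 passes Dnmt1.

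By merged length, Dnmt3b averaged 5.85 ± 0.16 RPKM in WT HSPC and Dnmt3a 3.16 ± 0.16 (SD, n = 2), the reverse of their deposited order. With every gene rescaled in this way, an alternative chosen after the data were seen, all 9 members were tested. Dnmt3b then fell against WT HSPC, with log2 changes of -0.44 ± 0.09 in Npm1c (adjusted p = 0.00651), -1.09 ± 0.09 in DM (adjusted p = 2.16e-05) and -2.92 ± 0.09 in neutrophils (adjusted p = 2.81e-09). In Flt3-ITD its log2 change was -0.22 ± 0.09 (adjusted p = 0.102). The reads-based ratio of Dnmt3b to Dnmt3a per merged length was 2.17 and 2.39 in Npm1c HSPC, 2.04 and 2.13 in Flt3-ITD HSPC, 1.10 and 1.11 in DM, 0.154 and 0.149 in neutrophils and 1.75 and 1.95 in WT HSPC. The DM pair thus lay below the other HSPC groups, and the neutrophils below them all.

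The TET genes split. Tet2 (chromosome 3, 133463679 to 133545139, minus strand) had 0.854 and 0.908 RPKM in Npm1c HSPC, 1.40 and 1.02 in Flt3-ITD HSPC, 2.84 and 2.73 in DM, 2.53 and 2.69 in neutrophils and 1.56 and 1.54 in WT HSPC. DM HSPC were above every other group and Npm1c HSPC below every other, with no overlap. The DM values rested on 4461 and 4669 reads, against 3046 and 3149 reads in WT HSPC. Its log2 change against WT HSPC was -0.57 ± 0.10 in Npm1c (adjusted p = 0.00393), -0.27 ± 0.10 in Flt3-ITD (adjusted p = 0.0816), 0.68 ± 0.10 in DM (adjusted p = 0.000541) and 0.60 ± 0.09 in neutrophils (adjusted p = 0.000294). Relative to the median gene, Tet2 in DM HSPC stood at 2.02 times its WT HSPC level. DM HSPC exceeded Npm1c HSPC by 1.25 ± 0.10 (adjusted p = 2.66e-05) and Flt3-ITD HSPC by 0.95 ± 0.10 (adjusted p = 0.000114). Gm42567 lies on the opposite strand and shares 43 exon bases with Tet2.

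The sum of the separate allele effects did not give the Tet2 level in DM HSPC. The interaction compares the effect of Npm1c with and without Flt3-ITD, and for Tet2 it was 1.52 ± 0.14 (adjusted p = 0.000105). Of the 7 members tested, 3 had a positive interaction and none a negative one, beside 39.2% and 27.6% of all genes (36.6% and 36.3% with median-of-ratios size factors, 28.9% and 49.4% under quantile normalization). The other two were Tet3, at 0.60 ± 0.10 (adjusted p = 0.00143), and Dnmt3a, at 0.46 ± 0.11 (adjusted p = 0.00957), which turned to -0.12 under quantile normalization (adjusted p = 0.177). The Tet2 interaction kept its sign and call in all 19 alternatives, with values of 1.15 to 2.03.

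Tet3 (chromosome 6, 83362373 to 83459084, minus strand) had 3.09 and 2.95 RPKM in Npm1c HSPC, 3.40 and 2.96 in Flt3-ITD HSPC, 4.32 and 4.28 in DM, 3.43 and 3.30 in neutrophils and 3.66 and 3.51 in WT HSPC. DM HSPC were above all other groups, and the remaining groups lay close together, with the Flt3-ITD pair overlapping both Npm1c and neutrophils. The log2 change in DM was 0.23 ± 0.07 against WT HSPC (adjusted p = 0.0166), 0.45 ± 0.07 against Npm1c (adjusted p = 0.000783) and 0.39 ± 0.07 against Flt3-ITD (adjusted p = 0.00167). Relative to the median gene, Tet3 in DM HSPC was at 1.48 times its WT HSPC level, but the call against WT HSPC was lost when either DM library or WT HSPC replicate 2 was left out (adjusted p up to 0.0898). In Npm1c HSPC the change against WT HSPC was -0.21 ± 0.07 (adjusted p = 0.033), which turned to 0.04 with median-of-ratios size factors (adjusted p = 0.547). In Flt3-ITD HSPC it was -0.15 ± 0.07 (adjusted p = 0.13), and 0.0087 under quantile normalization. In neutrophils it was -0.08 ± 0.06 (adjusted p = 0.254), and 0.67 with median-of-ratios size factors (adjusted p = 1.05e-06).

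Tet1 (chromosome 10, 62804570 to 62908996, minus strand) went the other way in DM HSPC. It had 0.465 and 0.490 RPKM in Npm1c HSPC, 0.778 and 0.620 in Flt3-ITD HSPC, 0.227 and 0.222 in DM, 0.215 and 0.227 in neutrophils and 0.826 and 0.768 in WT HSPC. DM HSPC and neutrophils overlapped at the bottom, and Flt3-ITD overlapped WT HSPC at the top. The DM values rested on 325 and 347 reads, against 1472 and 1431 in WT HSPC. By merged length Tet1 reached 1 RPKM in both WT HSPC libraries, both Flt3-ITD libraries and Npm1c replicate 2, and in no DM or neutrophil library. Tet1 thus entered that test through the groups where it was highest, which limits what its p-values show. By merged length it fell against WT HSPC, with log2 changes of -0.53 ± 0.09 in Npm1c (adjusted p = 0.00345), -1.16 ± 0.09 in DM (adjusted p = 1.76e-05) and -1.17 ± 0.08 in neutrophils (adjusted p = 9.75e-07), while its change in Flt3-ITD was -0.15 ± 0.09 (adjusted p = 0.259). The interaction of the alleles by merged length was -0.48 ± 0.13 for Tet1 (adjusted p = 0.0145) and -0.43 ± 0.13 for Dnmt3b (adjusted p = 0.0206), opposite in sign to that of Tet2.

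**Figure D4:**
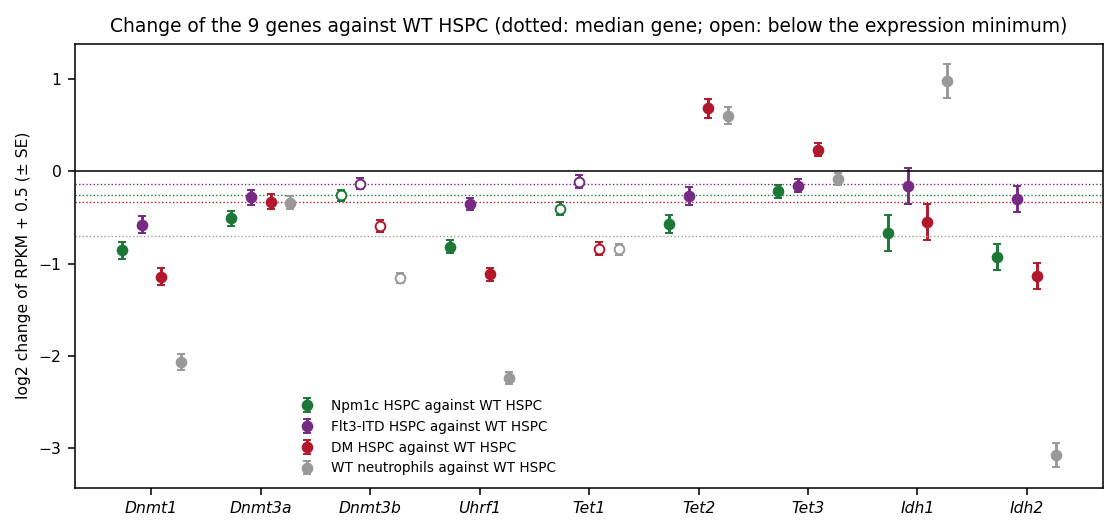
Log2 change of RPKM + 0.5 against WT HSPC (vertical axis, ± SE) of the 9 genes in Npm1c, Flt3-ITD, DM and neutrophils, with open points for genes below the expression minimum and dotted lines at each group's median gene. Tet2 lies above 0 in DM and neutrophils (0.68 and 0.60) and below 0 in Npm1c (-0.57), while Dnmt1 and Uhrf1 lie below their group's dotted line in all 4.

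Within a library, the ratio of Tet2 to Tet1 per merged exon length was 1.84 and 1.86 in Npm1c HSPC, 1.81 and 1.66 in Flt3-ITD HSPC, 12.6 and 12.3 in DM, 11.9 and 11.9 in neutrophils and 1.90 and 2.02 in WT HSPC. The DM ratio thus lay near that of neutrophils and far from the other HSPC groups. A ratio within a library does not depend on the library total. These ratios were chosen after the values were seen and are given with no test. The neutrophil markers summed to 105 and 89.5 RPKM in DM and to 78.8 and 60.1 RPKM in WT HSPC, against about 100000 in neutrophils. Monocyte markers summed to 96.4 and 94.7 RPKM in DM and to 70.0 and 71.6 RPKM in WT HSPC. They summed to 127 and 65.3 RPKM in Flt3-ITD HSPC, 38.2 and 35.8 in Npm1c HSPC and 179 and 174 in neutrophils. The part of monocytes in the Tet2 level was not tested. The 3 TET genes together, per merged length, summed to 6.42 and 6.42 RPKM in Npm1c HSPC, 8.59 and 6.94 in Flt3-ITD HSPC, 11.5 and 11.3 in DM, 9.82 and 10.01 in neutrophils and 9.33 and 8.996 in WT HSPC. The DNMT sum ran otherwise, at 39.8 and 40.5 RPKM in DM and 88.3 and 88.7 RPKM in WT HSPC.

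**Figure D5:**
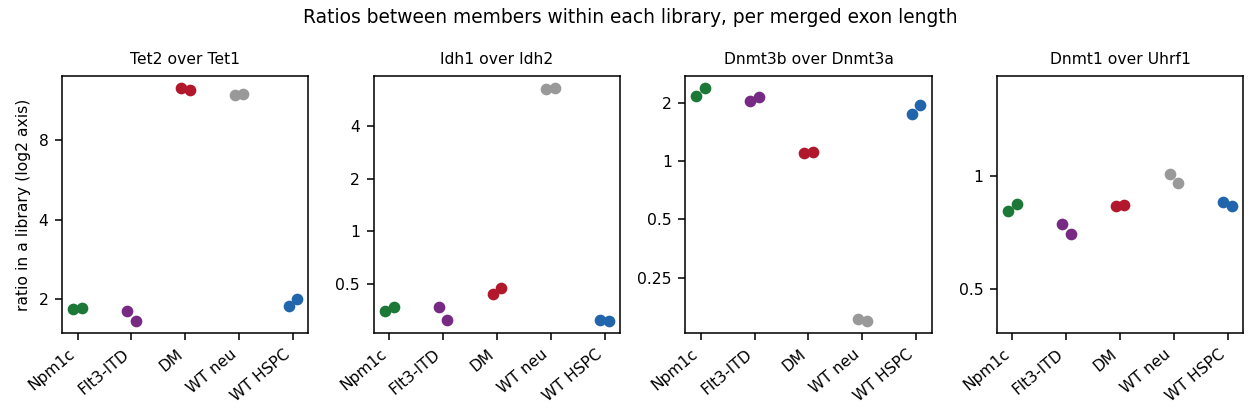
Ratios of Tet2 to Tet1, Idh1 to Idh2, Dnmt3b to Dnmt3a and Dnmt1 to Uhrf1 in each library, per merged exon length, on log2 axes that differ between panels. The Tet2 to Tet1 ratio is about 12 in DM and neutrophils and at most 2.02 in the other HSPC groups, while Dnmt1 to Uhrf1 stays between 0.700 and 1.01 in all libraries.

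Partners of the TET enzymes fell in DM HSPC. All 4 tested fell there against WT HSPC, with a median log2 change of -1.09 beside -0.34 over all genes. In Npm1c 2 fell, in Flt3-ITD 1 fell, and in neutrophils 3 fell and Ogt rose. Of all genes, 58.9% fell in DM, 58.1% in Npm1c, 31.3% in Flt3-ITD and 62.8% in neutrophils, where 28.4% rose. The direction in Npm1c turned with median-of-ratios size factors, where 2 rose and none fell. With these factors none was called in Flt3-ITD, 3 fell in DM and 3 fell and 1 rose in neutrophils. Among all genes they gave 20.1%, 9.65%, 40.3% and 45.9% lower in Npm1c, Flt3-ITD, DM and neutrophils, and 18.2%, 8.24%, 37.3% and 44.6% higher. Ddb1 and Vprbp, subunits of the CRL4 ubiquitin ligase that modifies TET proteins, changed in DM by -1.15 ± 0.05 (adjusted p = 1.01e-06) and -1.28 ± 0.05 (adjusted p = 1.02e-06). Ogt, whose product adds sugar to proteins in complex with TETs, changed in DM by -0.56 ± 0.09 (adjusted p = 0.00076), a call lost with median-of-ratios size factors.

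The genes listed for repair of oxidised cytosine after the TET step moved both ways, a list that also holds Gadd45 and cytidine deaminase genes. Of 11 tested in DM HSPC, 3 rose (Gadd45b, Gadd45g and Apobec1, a cytidine deaminase gene) and 8 fell against WT HSPC. All glycosylase and other base repair genes tested were among those that fell, though not all fell beyond the median gene. Relative to the median gene, the glycosylase genes Mbd4 and Smug1 changed by 0.10 and -0.01. Neither was called with median-of-ratios size factors (adjusted p = 0.555 and 0.389). Gadd45g, a stress-response gene of the Gadd45 family, rose by 1.31 ± 0.09 (adjusted p = 7.78e-06). Tdg, the glycosylase that removes oxidised cytosine, fell by 0.87 ± 0.07 (adjusted p = 2.01e-05), and the repair scaffold gene Xrcc1 fell by 0.87 ± 0.07 (adjusted p = 2.11e-05). Gadd45b was among the genes higher in DM than in both other mutant groups, by 3.82 ± 0.26 against Npm1c (adjusted p = 1.21e-05) and 3.03 ± 0.26 against Flt3-ITD (adjusted p = 3.9e-05). In Npm1c 9 of 11 fell and none rose, in Flt3-ITD 5 fell and none rose, and in neutrophils 5 of 12 rose and 7 fell. Among all genes 58.1%, 31.3% and 62.8% fell in these groups, and in DM 58.9% fell and 23.9% rose. With median-of-ratios size factors the list gave 1 higher and 3 lower in Npm1c, 2 lower in Flt3-ITD, 3 higher and 6 lower in DM and 6 higher and 6 lower in neutrophils. The all-gene shares under those factors were, in the same order, 18.2%, 8.24%, 37.3% and 44.6% higher and 20.1%, 9.65%, 40.3% and 45.9% lower. The falling neutrophil genes included Parp1, at -3.42 ± 0.06 (adjusted p = 5.87e-10).

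Genes of proteins that bind methylated CpG lay near the median gene in DM. Of 7 reader genes tested, 1 rose and 5 fell there against WT HSPC, with a median log2 change of -0.38 beside -0.34 over all genes. The gene that rose was Zbtb4, which encodes a zinc finger reader, by 0.94 ± 0.07 (adjusted p = 1.77e-05), and its interaction was 1.27 ± 0.10 (adjusted p = 5.05e-05). In Npm1c 3 readers fell, in Flt3-ITD 4 fell, with none higher in either, and in neutrophils 1 (Mbd2) rose and 5 fell. The shares of all genes that fell were 58.1%, 31.3% and 62.8% in these groups and 58.9% in DM, where 23.9% rose. The counts moved with median-of-ratios size factors, to 2 higher and 2 lower in Npm1c HSPC, 1 higher and 2 lower in Flt3-ITD HSPC, 1 higher and 3 lower in DM and 4 higher and 2 lower in neutrophils. All-gene shares with those factors were, in the same order, 18.2%, 8.24%, 37.3% and 44.6% higher and 20.1%, 9.65%, 40.3% and 45.9% lower.

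The isocitrate dehydrogenases moved in opposite directions in neutrophils, and in DM both were lower than in WT HSPC, Idh2 by more than Idh1. Idh2 (chromosome 7, 80094846 to 80115392, minus strand) had 9.82 and 10.9 RPKM in Npm1c HSPC, 19.2 and 13.7 in Flt3-ITD HSPC, 8.99 and 8.86 in DM, 1.98 and 1.92 in neutrophils and 19.8 and 20.5 in WT HSPC. WT HSPC were highest, narrowly above Flt3-ITD replicate 1, and no groups overlapped. Its log2 change against WT HSPC was -0.93 ± 0.14 in Npm1c (adjusted p = 0.00229), -1.13 ± 0.14 in DM (adjusted p = 0.000209) and -3.08 ± 0.13 in neutrophils (adjusted p = 4.11e-08). In Flt3-ITD it was -0.30 ± 0.14 (adjusted p = 0.141), and the pair of libraries spanned a factor of 1.41. DM HSPC were lower than Flt3-ITD HSPC by -0.83 ± 0.14 (adjusted p = 0.00128) and differed from Npm1c HSPC by -0.20 ± 0.14 (adjusted p = 0.227).

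Idh1 (chromosome 1, 65158616 to 65186500, minus strand) had 3.27 and 3.78 RPKM in Npm1c HSPC, 6.72 and 4.01 in Flt3-ITD HSPC, 3.73 and 3.98 in DM, 12.1 and 12.0 in neutrophils and 5.81 and 5.95 in WT HSPC. Neutrophils were above every other group, DM overlapped Npm1c, and the Flt3-ITD pair lay on both sides of WT HSPC. Its log2 change against WT HSPC was -0.67 ± 0.20 in Npm1c (adjusted p = 0.0236), -0.55 ± 0.20 in DM (adjusted p = 0.0332) and 0.98 ± 0.18 in neutrophils (adjusted p = 0.000865). Both mutant calls were lost with median-of-ratios size factors (adjusted p = 0.0876 in Npm1c and 0.216 in DM). Each was kept in 11 of 19 alternatives. In Flt3-ITD it was -0.16 ± 0.20 (adjusted p = 0.568), and 0.18 without Flt3-ITD replicate 2. That replicate 1 of Flt3-ITD also had the highest T and NK cell marker sum, 70.3 RPKM against 22.9 in replicate 2 and 41.5 and 42.6 in WT HSPC, and the part of such cells was not tested. The ratio of Idh1 to Idh2 per merged length was 0.352 and 0.368 in Npm1c HSPC, 0.369 and 0.310 in Flt3-ITD HSPC, 0.439 and 0.475 in DM, 6.49 and 6.61 in neutrophils and 0.311 and 0.307 in WT HSPC. The DM ratios lay above those of the other HSPC groups and far below those of neutrophils.

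Other enzymes that make or use 2-oxoglutarate fell widely in DM HSPC. Of 18 tested, 17 fell and 1 rose against WT HSPC, with a median log2 change of -0.70 beside -0.34 over all genes. Idh3a, the NAD-dependent mitochondrial isocitrate dehydrogenase, changed by -1.15 ± 0.05 (adjusted p = 2e-06) and Aco1 by -0.88 ± 0.05 (adjusted p = 4.44e-06). The gene that rose was Glud1, glutamate dehydrogenase, at 1.02 ± 0.14 (adjusted p = 0.000341). Glud1 was named after its values were seen, as were Apobec1, Mbd2, Mbd4 and Smug1. In Npm1c 13 fell, in Flt3-ITD 9 fell, with none higher in either, and in neutrophils 16 fell and Glud1 rose. Of all genes, 58.1%, 31.3% and 62.8% fell in these groups, and in DM 58.9% fell and 23.9% rose. The list gave 2 higher and 3 lower in Npm1c with median-of-ratios size factors, 3 lower in Flt3-ITD, 1 higher and 16 lower in DM and 2 higher and 16 lower in neutrophils. Beside these, all genes gave, in the same order, 18.2%, 8.24%, 37.3% and 44.6% higher and 20.1%, 9.65%, 40.3% and 45.9% lower with those factors.

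The methyl donor cycle, which supplies S-adenosylmethionine for the methyltransferases, fell in DM as well. Of 10 tested, 8 fell and 2 (Ahcyl2 among them) rose against WT HSPC, with a median log2 change of -0.75 beside -0.34 over all genes. Of all genes, 58.9% fell and 23.9% rose there. Mtr, methionine synthase, changed by -1.43 ± 0.05 (adjusted p = 4.88e-07), and its reductase gene Mtrr by -0.79 ± 0.06 (adjusted p = 1.54e-05). Ahcy, which clears the S-adenosylhomocysteine that inhibits methyltransferases, changed by -1.24 ± 0.06 (adjusted p = 2.68e-06). In Npm1c 5 of 10 fell and in Flt3-ITD 3, with none higher, but with median-of-ratios size factors 4 rose in Npm1c and 2 in Flt3-ITD, and none fell in either. Of all genes, 58.1% fell in Npm1c and 31.3% in Flt3-ITD. In neutrophils all 10 fell, beside 62.8% of all genes, and 8 fell with median-of-ratios size factors. In DM those factors gave 2 higher and 7 lower. Over all genes they gave 20.1%, 9.65%, 40.3% and 45.9% lower in Npm1c, Flt3-ITD, DM and neutrophils, and 18.2%, 8.24%, 37.3% and 44.6% higher. The interaction was -0.99 ± 0.07 for Mtr (adjusted p = 2.54e-05) and 0.99 ± 0.09 for Ahcyl2 (adjusted p = 7.62e-05).

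Across the 8 HSPC libraries, the genes whose log2 RPKM followed Uhrf1 most closely were Pcna (Pearson r = 0.998), Tmem186 and Knstrn. For Dnmt1 they were Emc3 (r = 0.998), Ube3b and Zfp219, and for Idh2 Gins3 (r = 0.996), E430025E21Rik and Dctn4. Tet2 was followed by Arhgdia (r = 0.999), 1110007C09Rik and Stx16, and Tet3 by Zfand3 (r = 0.996), P2rx4 and Gab2. Among the members themselves, Dnmt3b and Tet1 had r = 0.988, Idh2 and Uhrf1 0.982, Tet2 and Tet3 0.981 and Dnmt1 and Uhrf1 0.976, while Tet2 and Dnmt3b had -0.582. These 8 libraries are 4 groups of 2 that share their scaling, so the values describe a ranking over few independent points.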

How the data were processed

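RNA-seq was done on 10 libraries, 2 in each of 5 groups, and the labels' protocols give ribosomal RNA depletion and a directional library kit. The submitters' processing notes name mm10, STAR 2.4.0, HTSeq and DiffBind, with no role for each. For each library the authors deposited RPKM values, that is, reads divided by a gene length and a library total. A library with more reads off the listed genes has lower values throughout.

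From the steps between RPKM values, whole reads were recovered for 16655 of 16655 genes above 0 in at least 2 libraries, within 0.02 reads, and gene lengths with them. The members' values rested on 72 to 34001 reads, with a counting error of 0.556% to 11.8% of a value. In 15 of 45 gene and group combinations this exceeded the spread between the 2 libraries. RPKM + 0.5 was log2-transformed and fitted with limma 3.58.1 (R 4.3.3; trend), with genes at 1 RPKM or more in at least 2 fitted libraries. The HSPC comparisons used 8 libraries and the neutrophil comparison 10, with no covariate. The script was tested on simulated data. Alternatives covered scaling (median-of-ratios, listed-gene totals, quantile), pseudocounts of 0.1 and 1, no filter, a replicate block, a Y-linked term, voom on recovered reads, merged exon lengths and leaving out each library.

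The members and the gene lists were chosen with earlier results of these data known. The text names all 9 members, up to 3 genes per list and comparison with the smallest adjusted p-values below 0.05, and the 3 genes most like each member, except a few list genes that are not reported here. Promoters came from RefSeq (GRCm38.p6) and exons from GENCODE M21. Replicate numbers are not stated to pair libraries across groups.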

Additional observations from a re-analysis of the deposited data

Results flagged for a closer look

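For 3 of the 7 members tested the effect of Npm1c differed with and without Flt3-ITD by a test of the difference itself (limma, interaction term, Benjamini-Hochberg over 9702 genes). All 3 were positive, beside 39.2% of all genes with a positive interaction and 27.6% with a negative one. The count lies near the share of all genes, so it says little about the members as a set. The effect of Npm1c was larger with Flt3-ITD by 1.52 for Tet2 (adjusted p = 0.000105), by 0.60 for Tet3 (adjusted p = 0.00143) and by 0.46 for Dnmt3a (adjusted p = 0.00957), all on the log2 scale. For Tet2 the effect of Npm1c was 1.25 in the presence of Flt3-ITD and -0.57 in its absence. For Tet3 the same values were 0.45 and -0.21, the second of which turned to 0.04 under median-of-ratios scaling. For Dnmt3a they were 0.18, not called, and -0.51, and the difference turned to -0.12 under quantile normalization. Dnmt3a also passed the expression minimum through the groups where it was highest, which limits what its p-values show. Groups of 2 libraries cannot be searched for a library that stands apart.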

How the results depend on the processing

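Groups hold 2 libraries, so values of low genes and of the unlike Flt3-ITD pair are the least firm. Of 987 recomputed values of single members, 850 kept direction and side of the threshold (or, for untested members, moved little), 47 lost the call, 36 gained one, 28 reversed and 26 moved; 42 were of untested members, the 26 among them. Tet2 in DM against WT HSPC held in all 19 alternatives (0.57 to 0.96), as did Dnmt1, Uhrf1 and Idh2.

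Members called in Flt3-ITD against WT HSPC numbered 3, but 5 with a Y-linked term, 7 without the libraries with Y-linked transcripts (chosen, like merged exon lengths, after the data were seen) and 0 to 7 when 1 library was left out (0 without either WT HSPC library, 7 without Flt3-ITD replicate 1). In DM against WT HSPC they numbered 7, and 4 to 7 with 1 library left out, 4 without DM replicate 1. In DM against Npm1c they numbered 4, but 7 with voom on recovered reads and 7 without the Y-linked libraries, and 3 to 6 with 1 left out. For the interaction they numbered 3, but 6 with a Y-linked term, 5 with voom, 5 with merged exon lengths, 7 without the Y-linked libraries and 2 to 6 with 1 left out, 6 without Flt3-ITD replicate 1.

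Reversals, with log2 values in the order median-of-ratios, listed-gene and quantile where all are given: Tet3 in Npm1c against WT HSPC, 0.041, 0.012 and 0.083; Uhrf1 interaction -0.066, -0.22 and -0.14; Idh2 interaction -0.019, -0.17 and -0.12. Tet3 in Flt3-ITD reached 0.0087 under quantile. Idh1 in Flt3-ITD was 0.00021 under median-of-ratios and 0.0038 under quantile. Under quantile, DM against Npm1c gave -0.26 for Dnmt3a and -0.027 for Idh1, and the interaction -0.12 for Dnmt3a and -0.031 for Idh1. Dnmt3a in DM against Flt3-ITD was 0.065 under median-of-ratios, 0.0025 with a Y-linked term and 0.061 without the Y-linked libraries. In neutrophils, median-of-ratios and quantile gave 0.25 and 0.19 for Dnmt3a and 0.67 and 0.40 for Tet3. With 1 library left out, Idh1 in Flt3-ITD ran from -0.50 to 0.18, Dnmt3a in DM against Flt3-ITD from -0.16 to 0.061, and the interaction from -0.033 to 0.14 for Uhrf1, -0.063 to 0.62 for Idh1 and -0.14 to 0.34 for Idh2. The cause was not tested.

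Over all genes, the numbers higher and lower ran from 101 to 1865 and 1613 to 7003 in Npm1c (242 and 5638 in the main setting), 26 to 1044 and 456 to 6231 in Flt3-ITD (180 and 3033), 1390 to 3737 and 3910 to 7036 in DM (2316 and 5719) and 2358 to 4534 and 4672 to 8191 in neutrophils (2892 and 6391), each against WT HSPC. For the interaction they ran from 2633 to 5171 and 2189 to 4790 (3800 and 2680). With a replicate block, members called stayed at 7, 3, 7, 4, 5, 3 and 6 in the 7 comparisons; same-numbered libraries did not deviate together (r of -0.11 to 0.11).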
